A study of Mus musculus with 18 samples.

Results

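Imprinted genes of the brain were followed through 3 comparisons of mouse hippocampus in which the microRNAs miR-132 and miR-212 were removed or added. The 10 genes (Nnat, Peg3, Snrpn, Ndn, Meg3, Sgce, Impact, Grb10, Gnas and Zrsr1) were taken by gene symbol from 11738 symbols listed in any of the count tables. The set was selected on earlier results of these data, of which the CPM of Nnat in tTA::miR132 is the one stated, so the values are a description of these libraries and support no claim about imprinted genes as a class. Symbols listed were 8 of the 10 for the deletion and for tTA::miR132 (not Meg3 or Snrpn) and 7 for tTA::miR212 (not Sgce, Impact or Grb10), and 5 were in every table.

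The study asked what loss or gain of these microRNAs does to hippocampal gene expression, in C57BL/6 mice. The groups were miR-132/212 cKO, with floxed miR-132/212 alleles and a CaMKII-Cre transgene, whose promoter is active in excitatory forebrain neurons, against nontransgenic cKO controls; tTA::miR132, in which a tetracycline transactivator drives a miR-132 transgene, against nontransgenic miR132 controls; and tTA::miR212 against nontransgenic miR212 controls. Controls had neither Cre nor transactivator, so the driver and the microRNA cannot be told apart. Hippocampal polyadenylated RNA was sequenced after cDNA of 6 animals had been pooled into the replicates of a group, and the tables analysed held 2 libraries per group for the cKO and miR132 comparisons and 3 per group for miR212. The age and sex of the animals were not used here.

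Imprinted genes are those of which mainly 1 parental copy is transcribed, because DNA methylation laid down in egg or sperm marks the copies differently at control regions. Many are high in the brain, above all in the hypothalamus, and act in growth, feeding, maternal behaviour and neuron development. Nnat, Peg3, Snrpn, Ndn, Sgce, Impact and Zrsr1 are made from the paternal copy and Meg3 from the maternal one; Grb10 is made from the paternal copy in neurons and the maternal copy elsewhere, and the Gnas locus makes transcripts of either kind. A microRNA lowers messages that hold a match to its seed, the bases 2 to 8 of its mature form. The counts do not separate parental copies, so imprinting itself was not measured.

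The mature sequences are shown because miR-132 and miR-212 share 1 seed, in capitals, and a search of the imprinted transcripts for its match is therefore the same for both (RefSeq, build GRCm38.p6, chr11, plus strand, 5′ to 3′).
mmu-miR-132-3p: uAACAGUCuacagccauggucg
mmu-miR-212-3p: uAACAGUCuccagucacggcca

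The seed match GACTGTT, read on the transcript strand, was present in the longest annotated 3′UTR of 10.0% of 19915 genes. Among the 9 protein-coding members it was found in 1, Ndn, with a 3′UTR of 543 bases. The spliced Meg3 RNA of 14548 bases, a noncoding RNA, held 1 match in its exons. Both stretches are shown with the match in capitals (build mm9, plus strand, chr7:69494719-69494748 for Ndn and chr12:110809058-110809087 for Meg3). A match is a run of letters and not a measured site.
Ndn: gatttgaactgGACTGTTctcagtgtaggc
Meg3: taacccatactGACTGTTgtggaggtgggc

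Promoters are shown for the 2 genes whose groups lay apart in the same direction in tTA::miR132, Nnat and Peg3, and for Meg3, in which 1 library stood apart. Each run covers 250 bases before to 50 after the RefSeq start (GRCm38.p6, chr2:157559828-157560127 plus strand for Nnat, chr7:6730370-6730669 minus strand for Peg3, chr12:109540746-109541045 plus strand for Meg3). Capitals mark TGCCGC or its reverse complement GCGGCA, the letters of the motif that the imprint-keeping protein ZFP57 binds when methylated, which stood on either strand in 11.6% of 32851 promoters of the same length. The Nnat and Meg3 windows held 1 match each and the Peg3 window none, and their CpG counts were 17 for Nnat, 13 for Peg3 and 13 for Meg3, against a median of 7 over all promoters. Meg3 has a further RefSeq start, whose window (chr12:109545148-109545447) held no match and 1 CpG. Over the 8 members whose windows were used, 4 of 16 windows held the motif (1 each of Nnat, Snrpn, Grb10 and Meg3).
Nnat promoter: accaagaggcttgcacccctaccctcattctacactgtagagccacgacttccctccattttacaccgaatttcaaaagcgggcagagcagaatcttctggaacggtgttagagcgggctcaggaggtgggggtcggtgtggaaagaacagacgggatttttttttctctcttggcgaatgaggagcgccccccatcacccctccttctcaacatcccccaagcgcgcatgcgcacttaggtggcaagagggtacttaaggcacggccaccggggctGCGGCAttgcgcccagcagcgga
Peg3 promoter: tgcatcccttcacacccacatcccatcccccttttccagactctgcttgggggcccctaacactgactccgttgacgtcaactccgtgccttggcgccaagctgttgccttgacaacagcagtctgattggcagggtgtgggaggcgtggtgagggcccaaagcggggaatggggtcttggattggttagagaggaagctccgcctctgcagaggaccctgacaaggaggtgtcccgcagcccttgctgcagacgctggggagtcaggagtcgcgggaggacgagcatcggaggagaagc
Meg3 promoter: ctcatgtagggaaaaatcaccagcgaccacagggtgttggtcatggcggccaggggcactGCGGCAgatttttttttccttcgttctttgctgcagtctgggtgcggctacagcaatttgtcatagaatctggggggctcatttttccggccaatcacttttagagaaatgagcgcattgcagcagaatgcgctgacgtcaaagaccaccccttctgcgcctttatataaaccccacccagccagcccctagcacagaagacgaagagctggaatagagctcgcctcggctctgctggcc

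Libraries differed in ways that touch the values below. Total counts over the genes used were 8190899 to 9702801 in the cKO table, 8301385 to 14772907 in the miR132 table and 1299369 to 1544923 in the miR212 table. Library 1 of the cKO group listed 1047 of 10541 genes at 0, against 73 to 120 in the other 3 libraries of its table. Hippocampal neuron markers were listed in every table (12, 12 and 10 of 12). Summed markers of choroid plexus, a tissue that borders the hippocampus, were 966 and 2552 CPM (reads per 1000000 counted) in the cKO libraries against 5527 and 6464 CPM in controls. In cKO library 1, 7 of these 12 markers were at 0. In tTA::miR132 the same markers summed to 5040 and 3707 CPM, against 6544 and 5060 CPM in miR132 controls. In the miR212 table Xist, the RNA of the inactive X chromosome of females, was at 3.07, 711 and 130 CPM in the transgenic libraries against 763, 1298 and 1352 CPM in controls. Those groups did not overlap, and the part of sex in the miR212 values was not tested. The cKO and miR132 tables listed no gene of the X chromosome, so such a difference could not be looked for there. In bulk tissue, fewer cells of a type and less RNA per cell cannot be told apart.

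No imprinted gene passed the test in any comparison, and neither did any other gene. With edgeR's quasi-likelihood test at an adjusted p of 0.05, 0% of 10487 genes were called for the deletion, 0% of 10734 for tTA::miR132 and 0% of 4618 for tTA::miR212, while 88, 303 and 260 genes had an unadjusted p below 0.05. DESeq2 called 5, 39 and 0 genes, Nnat of tTA::miR132 among the 39. Adjusted p-values of the members in edgeR were 0.999 in every case for the deletion, 0.997 to 0.999 for tTA::miR132 and 0.919 to 0.999 for tTA::miR212. Because libraries are described as pools, these p-values measure the spread between libraries and not between animals. The fitted biological coefficient of variation was 74.2% for the deletion and 60.7% for tTA::miR132, and far lower, 8.58%, for tTA::miR212. With 2 libraries per group and so wide a spread, the lack of calls for the deletion and tTA::miR132 does not show a lack of change. The median log2 fold change of the listed members was 0.03 for the deletion against -0.03 over all genes, 0.10 for tTA::miR132 against 0.00, and -0.04 for tTA::miR212 against 0.00.

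A second description counts the genes whose groups did not overlap, that is, all libraries of 1 group above all of the other. For the deletion this held for 1 of 8 members (Gnas), which was higher, against 14.3% of all genes higher, 18% lower and 32.3% in either direction. For tTA::miR132 it held for 2 of 8 (Nnat and Peg3), both higher, against 18.8% higher, 14.3% lower and 33.1% in either direction. For tTA::miR212 it held for 0 of 7, against 6.47% higher, 4.96% lower and 11.4% in either direction. Nothing particular to the imprinted genes is read from these counts.

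**Figure D1:**
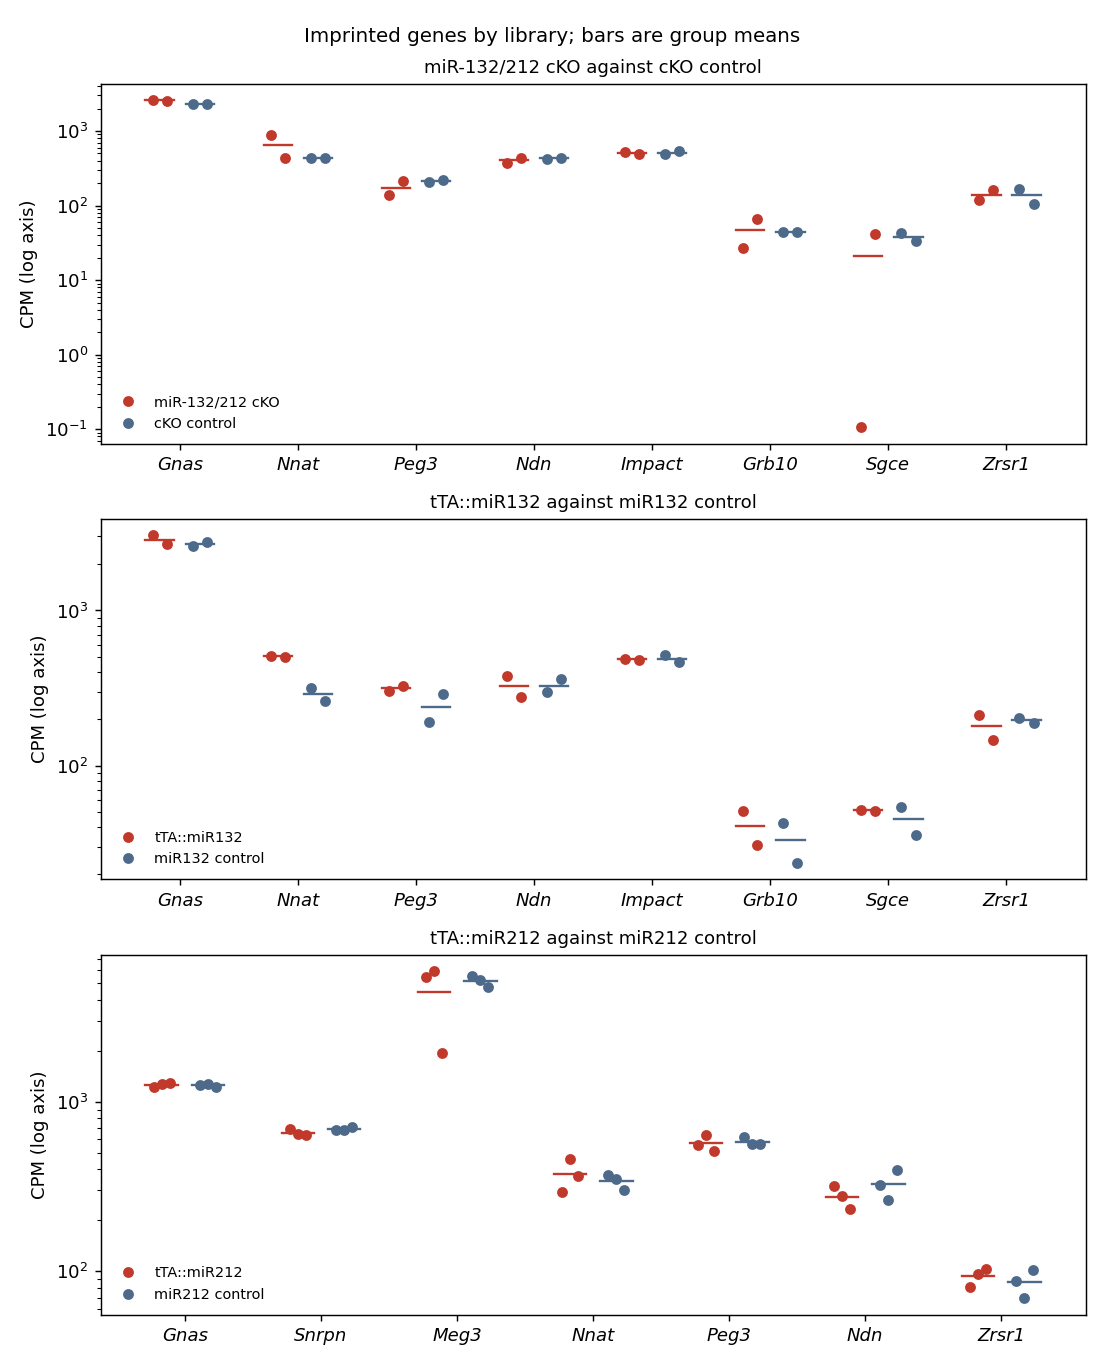
CPM of each listed imprinted gene on a log axis, 1 point per library, with the transgenic or deletion group (red) left of its controls (blue) and bars at the group means. Nnat and Peg3 lie apart in tTA::miR132, while the wide cKO points of Nnat and Sgce and the low tTA::miR212 point of Meg3 are single libraries.

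Nnat encodes neuronatin, a small membrane proteolipid of the endoplasmic reticulum of developing and mature neurons. The gene, chr2:157385814-157388258 on the plus strand of mm9, lies inside an intron of Blcap on the other strand, with which it shares no exonic base. In tTA::miR132 Nnat had 510 and 505 CPM, against 314 and 262 CPM in miR132 controls. Both transgenic libraries were above both controls and within 1.01-fold of each other. The log2 fold change was 0.77 (SE 0.19) (rank 5 by p of 10734 genes), and edgeR's adjusted p was 0.997. DESeq2 called it (adjusted p = 0.0001222). This value was known when the genes were chosen.

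The same gene gave no such picture in the other comparisons. Nnat had 875 and 435 CPM in miR-132/212 cKO libraries, against 429 and 441 CPM in cKO controls. The groups overlapped, and the log2 fold change of 0.63 (SE 0.36, edgeR adjusted p = 0.999) rested on cKO library 1, without which it was -0.01. In that library 14.0% of all genes deviated further upward from the other libraries than Nnat did. Without cKO library 2 the Nnat log2 fold change was 1.08 and its edgeR adjusted p 3.446e-06, in a fit that called 4527 genes. In tTA::miR212 Nnat had 294, 460 and 364 CPM, against 371, 349 and 302 CPM in miR212 controls, with overlapping groups and a log2 fold change of 0.12 (SE 0.15, edgeR adjusted p = 0.961). The differences between comparisons were not tested, since the tables were made separately.

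**Figure D2:**
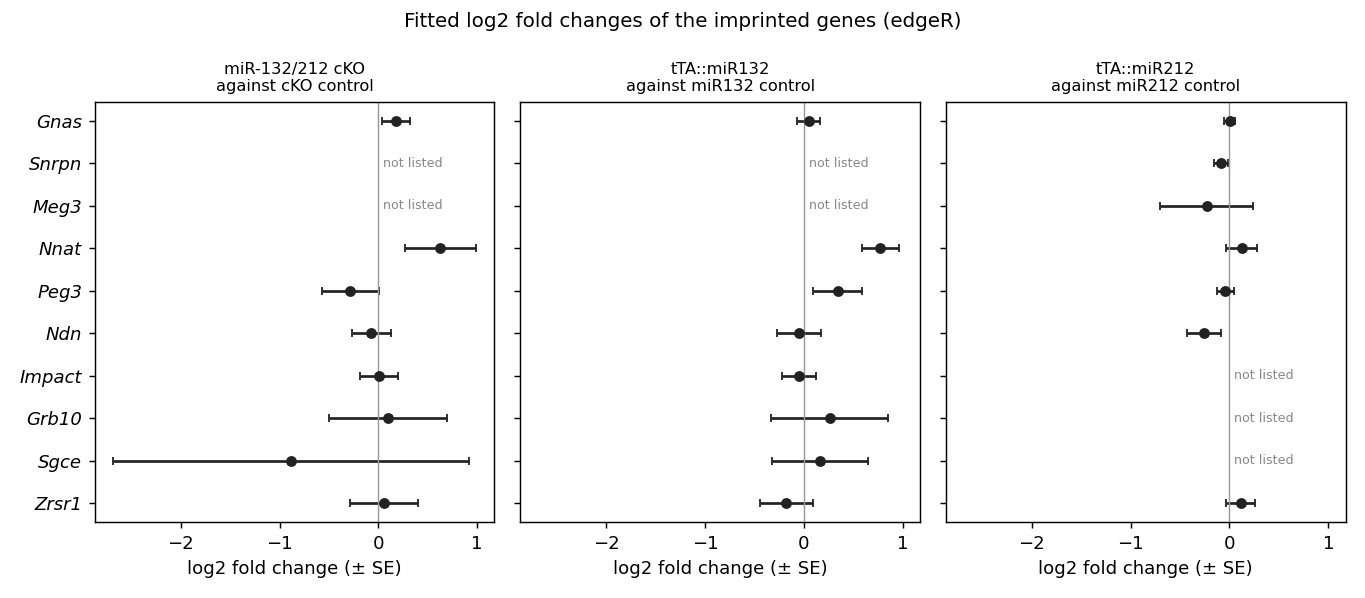
Log2 fold change of each imprinted gene (points) from edgeR, with a standard error (bars) derived from that value and the test's F statistic, in 1 panel per comparison. The bars of Nnat and Gnas in the deletion, Nnat (0.77, SE 0.19) and Peg3 in tTA::miR132, and Ndn and Snrpn in tTA::miR212 do not reach 0, which at 1 standard error is no test; those of Sgce in the deletion (SE 1.80) are the widest, and the tTA::miR212 values lie between -0.26 and 0.12.

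Peg3, a paternally expressed zinc finger protein known in mice for roles in growth and maternal behaviour, was the other gene whose groups lay apart in tTA::miR132. It had 304 and 324 CPM, against 191 and 288 CPM in miR132 controls. Most of the gap came from control library 1. Its log2 fold change, 0.34 (SE 0.25, edgeR adjusted p = 0.997), was 0.06 without that control and 0.70 without control library 2. In the deletion Peg3 had 137 and 212 CPM, against 208 and 222 CPM in cKO controls, with library 1 low and library 2 among the controls (log2 fold change -0.28, SE 0.29, edgeR adjusted p = 0.999). It was -0.03 without cKO library 1 and -0.58 without cKO library 2. In tTA::miR212 Peg3 had 559, 639 and 512 CPM, against 623, 563 and 560 CPM in miR212 controls. Those groups overlapped (-0.04, SE 0.08).

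Ndn, the gene with the seed match, encodes necdin, a MAGE family protein of postmitotic neurons and a neighbour of Snrpn in the region lost in human Prader-Willi syndrome. In the deletion it had 371 and 436 CPM, against 421 and 439 CPM in cKO controls. In tTA::miR132 it had 376 and 277 CPM, against 296 and 360 CPM in miR132 controls. In tTA::miR212 it had 319, 278 and 231 CPM, against 321, 264 and 396 CPM in miR212 controls. The groups overlapped in all 3 comparisons. The log2 fold changes were -0.07 (SE 0.20) for the deletion, -0.05 (SE 0.22) for tTA::miR132 and -0.26 (SE 0.17) for tTA::miR212, with edgeR adjusted p-values of 0.999, 0.999 and 0.919. Leaving out 1 library at a time moved the tTA::miR212 value between -0.39 and -0.09.

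Gnas encodes the stimulatory G protein alpha subunit, which links receptors to adenylyl cyclase, together with variant proteins from upstream promoters. In the deletion it had 2608 and 2548 CPM, against 2295 and 2340 CPM in cKO controls. Both cKO libraries lay above both controls, by a log2 fold change of 0.18 (SE 0.14, edgeR adjusted p = 0.999). In tTA::miR132 it had 3045 and 2665 CPM, against 2590 and 2770 CPM in miR132 controls, and the groups overlapped (0.05, SE 0.12). In tTA::miR212 it had 1223, 1274 and 1288 CPM, against 1258, 1272 and 1227 CPM in miR212 controls (0.00, SE 0.06). The miR212 table lists 20 Gnas transcripts, which share exons, and their log2 fold changes ran from -0.07 to 0.06.

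Grb10, an adaptor that dampens insulin and growth factor receptor signalling, was 1 of the scarcer members. In the deletion it had 27.3 and 66.8 CPM, against 44.6 and 44.1 CPM in cKO controls, which lay between the cKO libraries. In tTA::miR132 it had 50.6 and 30.9 CPM, against 42.8 and 23.6 CPM in miR132 controls. The log2 fold changes were 0.09 (SE 0.60) and 0.26 (SE 0.59), each smaller than its standard error. Impact, which restrains the amino acid sensing kinase Gcn2 and so acts on translation, had highest-to-lowest ratios within a group of only 1.01 to 1.11. It had 526 and 492 CPM in cKO libraries, against 488 and 542 CPM in cKO controls. It had 489 and 483 CPM in tTA::miR132, against 513 and 462 CPM in miR132 controls. Its log2 fold changes were 0.01 (SE 0.20) and -0.05 (SE 0.17).

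Sgce encodes epsilon-sarcoglycan, a membrane protein whose loss in humans causes myoclonus-dystonia. In the deletion it had 1 count and 403 counts in libraries 1 and 2, against 399 and 277 counts in cKO controls, or 0.11 and 41.5 CPM against 42.3 and 33.8 CPM. A single count has an exact 95% Poisson interval of 0.0253 to 5.57 counts, or up to 0.592 CPM, for counting error only. The low count was in library 1 alone, and the log2 fold change of -0.88 (SE 1.80, edgeR adjusted p = 0.999) became 0.11 without it. Of 2007 genes with a mean of 250 to 450 counts in the other 3 libraries, 115 (5.73%) had at most 1 count in that library. In tTA::miR132 Sgce had 52.0 and 51.3 CPM, against 54.1 and 35.8 CPM in miR132 controls, with a log2 fold change of 0.16 (SE 0.48). The deletion and miR132 tables give Sgce by different RefSeq transcripts.

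Zrsr1, a retrogene related to the U2AF splicing factor, lies at chr11:22873215-22876498 (mm9, plus strand) within Commd1, on the other strand, and shares 6.18% of its exonic bases with it. Strand is not stated for the counting, so reads of that stretch could belong to either gene. The same holds for exonic bases that other members share with genes on the other strand. These were Gnas (13.1% with AF085738, 8.83% with Nespas), Meg3 (6.79% with Gm17639) and Nnat (4.76% with AL672259.1). Zrsr1 had 118 and 163 CPM in cKO libraries, against 167 and 106 CPM in cKO controls. It had 212 and 146 CPM in tTA::miR132, against 204 and 189 CPM in miR132 controls. In tTA::miR212 it had 81.3, 96.4 and 104 CPM, against 87.5, 69.3 and 102 CPM in miR212 controls. All groups overlapped, and the log2 fold changes were 0.06 (SE 0.35), -0.18 (SE 0.27) and 0.11 (SE 0.14).

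Snrpn encodes SmN, a core spliceosomal protein of neurons, and was listed only in the miR212 table. It had 688, 645 and 633 CPM in tTA::miR212, against 686, 679 and 707 CPM in miR212 controls. Transgenic libraries 2 and 3 lay below all controls and library 1 among them, for a log2 fold change of -0.09 (SE 0.07, edgeR adjusted p = 0.931). Snurf, a short upstream reading frame carried by the same message, is listed beside it, so the pair share reads. Snurf had 314, 311 and 310 CPM in tTA::miR212, against 325, 320 and 339 CPM in miR212 controls, and these groups did not overlap (-0.08, SE 0.08). In the tables without Snrpn, Snurf had 1308 and 1191 CPM in cKO libraries, against 991 and 1090 CPM in cKO controls. Those groups did not overlap either, with the cKO libraries higher. Snurf had 1180 and 1120 CPM in tTA::miR132, against 1094 and 1132 CPM in miR132 controls, and the groups overlapped. The log2 fold changes of Snurf were 0.29 (SE 0.17) for the deletion and 0.00 (SE 0.14) for tTA::miR132.

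Meg3, a long noncoding RNA of the maternal copy that is retained in nuclei, was the most abundant member per library in the miR212 table. It had 5452, 5912 and 1943 CPM in tTA::miR212, against 5492, 5255 and 4734 CPM in miR212 controls. Transgenic library 3 was lowest of the 6 and transgenic library 2 was highest. The log2 fold change of -0.23 (SE 0.47, edgeR adjusted p = 0.990) became 0.13 without library 3. In that library Meg3 differed by -1.46 from the mean of the other libraries on the log2(CPM + 1) scale, with rank 8 from the lowest of 4618 genes. All 10 Meg3 transcripts of the table, which share exons, were lowest there, at 31.4% to 48.3% of the control mean.

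Genes with a lower deviation than Meg3 in tTA::miR212 library 3 are named after their values were seen. They included Snhg11, a long noncoding RNA, with 1935, 1974 and 641 CPM in tTA::miR212 against 1878, 1962 and 1863 CPM in miR212 controls. Leng8 had 350, 476 and 134 CPM, against 427, 372 and 330 CPM in controls. Fos and Npas4, genes switched on by neuronal activity, also lay below Meg3 in that order. Astrocyte markers summed to 8613 CPM in that library, against 6590 to 7061 CPM in the other transgenic libraries and 6845 to 7260 CPM in controls. The part of any of these in the Meg3 value was not tested.

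**Figure D3:**
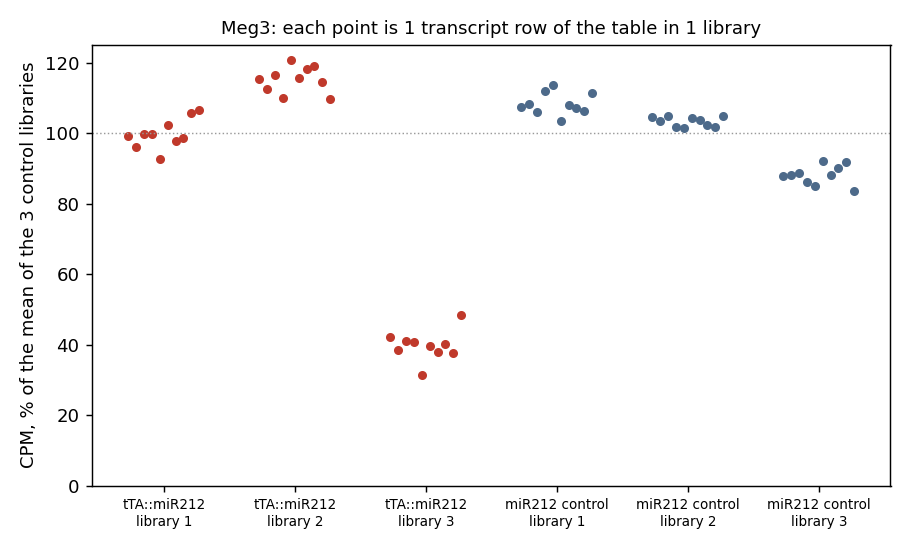
Each Meg3 transcript of the miR212 table as a percentage of its mean over the 3 control libraries, with 1 point per transcript and library, tTA::miR212 (red) left of controls (blue). All 10 transcripts of tTA::miR212 library 3 lie between 31.4% and 48.3%, below every other library.

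Compared per length, in CPM per kilobase of the transcript used, control levels of the miR212 table were 355 ± 26.6 for Meg3, 350 ± 7.40 for Snrpn, 321 ± 5.92 for Gnas, 235 ± 24.4 for Nnat, 198 ± 40.1 for Ndn, 66.9 ± 4.09 for Peg3 and 26.3 ± 5.03 for Zrsr1 (mean ± SD, n = 3). In this order the ranges over control libraries overlapped between Meg3 and Snrpn and between Nnat and Ndn. The other neighbours did not overlap. Transgenic levels on the same scale were 305 ± 149 for Meg3, 333 ± 14.4 for Snrpn, 323 ± 8.67 for Gnas, 257 ± 57.5 for Nnat, 167 ± 26.5 for Ndn, 65.5 ± 7.39 for Peg3 and 28.6 ± 3.49 for Zrsr1.

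Other imprinted genes were taken from lists of 24 mainly paternally and 31 mainly maternally expressed genes, of which 14 and 14 were listed for the deletion, 15 and 14 for tTA::miR132, and 6 and 10 for tTA::miR212. None passed edgeR's test in any comparison, and none had an unadjusted p below 0.05. Their median log2 fold changes were 0.12 and -0.18 for the deletion, 0.00 and -0.27 for tTA::miR132 and 0.03 and -0.01 for tTA::miR212, given for the paternal list before the maternal list. Of factors that keep imprints, 6, 6 and 5 of 10 were listed and none passed. Trim28, the corepressor that ZFP57 recruits, averaged 107 CPM in cKO libraries and 159 CPM in cKO controls, with groups apart (log2 fold change -0.55, SE 0.30). It averaged 138 CPM in tTA::miR132 and 148 CPM in miR132 controls (-0.14, SE 0.29), and 151 CPM in tTA::miR212 and 136 CPM in miR212 controls (0.14, SE 0.11).

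The smallest p-values of these lists belonged to different genes in each comparison. For the deletion they were Mest, a growth-related hydrolase family gene, with a mean of 112 CPM in cKO libraries and 49.8 CPM in cKO controls (1.21, SE 0.62), then Trim28 and Snurf. For tTA::miR132 they were Rtl1 (1.86, SE 1.10), Eif2c2, which encodes Argonaute 2 (25.4 CPM in tTA::miR132 and 49.7 CPM in miR132 controls, -1.01, SE 0.62), and Mest (-0.81, SE 0.52). For tTA::miR212 they were Usp29 (66.3 CPM in tTA::miR212 and 51.6 CPM in miR212 controls, 0.35, SE 0.19), Trim28 and Copg2 (-0.14, SE 0.11). None of these was called.

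Neighbours in the same imprinted clusters as the members were not called by edgeR either. Usp29, which adjoins Peg3, averaged 45.8 CPM in cKO libraries and 30.3 CPM in cKO controls (log2 fold change 0.64, SE 0.75), and 34.2 CPM in tTA::miR132 and 47.3 CPM in miR132 controls (-0.52, SE 0.65), in each case with the sign opposite to that of Peg3. Peg10, which adjoins Sgce, averaged 17.5 CPM in cKO libraries and 32.0 CPM in cKO controls (-0.85, SE 0.74). Dlk1, of the Meg3 cluster, averaged 14.8 CPM in cKO libraries and 6.29 CPM in cKO controls (1.26, SE 1.58). In tTA::miR132 the groups of both genes overlapped (-0.08, SE 0.78, for Peg10 and 0.48, SE 2.35, for Dlk1). Blcap, around Nnat, was listed only for tTA::miR212, with 130 CPM there and 133 CPM in controls (-0.05, SE 0.11). Ube3a, the ubiquitin ligase of the Snrpn and Ndn region, averaged 154 CPM in tTA::miR132 and 197 CPM in miR132 controls, with groups apart (-0.41, SE 0.27). Its groups overlapped in the deletion (-0.05, SE 0.26) and in tTA::miR212 (0.04, SE 0.12). Atp10a, near Ube3a, averaged 2.63 CPM in cKO libraries and 18.2 CPM in cKO controls, with groups apart (-2.80, SE 2.47), and 5.76 CPM in tTA::miR132 and 19.5 CPM in miR132 controls (-1.83, SE 1.78). Ppp1r9a, Ddc and Cobl, which adjoin Sgce or Grb10, had log2 fold changes between -0.48 and 0.53.

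In tTA::miR132 the other imprinted genes went both ways. Groups did not overlap, and were higher, for 2 of 15 genes of the paternal list (Magel2 and Rtl1) and 2 of 13 of the maternal list, against 18.8% of all genes, and lower for 0 of 15 and 2 of 13, against 14.3%. Of the paternal list 7 log2 fold changes were above 0 and 8 below, and of the maternal list 5 above and 8 below. Magel2, a paternally expressed neighbour of Ndn and a gene of hypothalamic neurons, had 260 and 77 counts (17.6 and 8.78 CPM) in tTA::miR132, against 45 and 9 counts (4.55 and 1.08 CPM) in miR132 controls, a log2 fold change of 2.20 (SE 1.88). Rtl1, from the Meg3 cluster, had 35.7 and 12.9 CPM, against 2.93 and 10.0 CPM in controls. Of a list of 10 hypothalamic markers, 2 were listed in this table and none in the others. They are named here because their values were seen. The submitters filtered the genes of each comparison separately. A gene with 0 counts in both controls was therefore listed only through its transgenic counts. Oxt, which encodes oxytocin, had 372 and 40 counts in tTA::miR132, against 0 and 0 in miR132 controls. Nkx2-1, a transcription factor of the hypothalamus and ventral forebrain, had 191 and 11 counts, against 0 and 0. A count of 0 allows up to 0.303 and 0.361 CPM in those controls, for counting error only.

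Between the tTA::miR132 libraries Oxt differed more than Nnat, and 2 libraries are too few to read a relation between them. Oxt was at 25.2 CPM in library 1 and 4.56 CPM in library 2, while Nnat was at 510 and 505 CPM. The log2 fold change of Nnat was 0.76 without library 1 and 0.79 without library 2, and neither was called by edgeR. Summed oligodendrocyte markers (7 of 8 listed) were 4706 and 4572 CPM in tTA::miR132, against 3756 and 3922 CPM in miR132 controls, and summed hippocampal neuron markers were 3613 and 3872 CPM, against 3962 and 4502 CPM. The thalamus list (6 of 6 listed) summed to 109 and 182 CPM, against 157 and 214 CPM in controls. The part of other brain regions or cell types in the Nnat value was not tested.

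**Figure D4:**
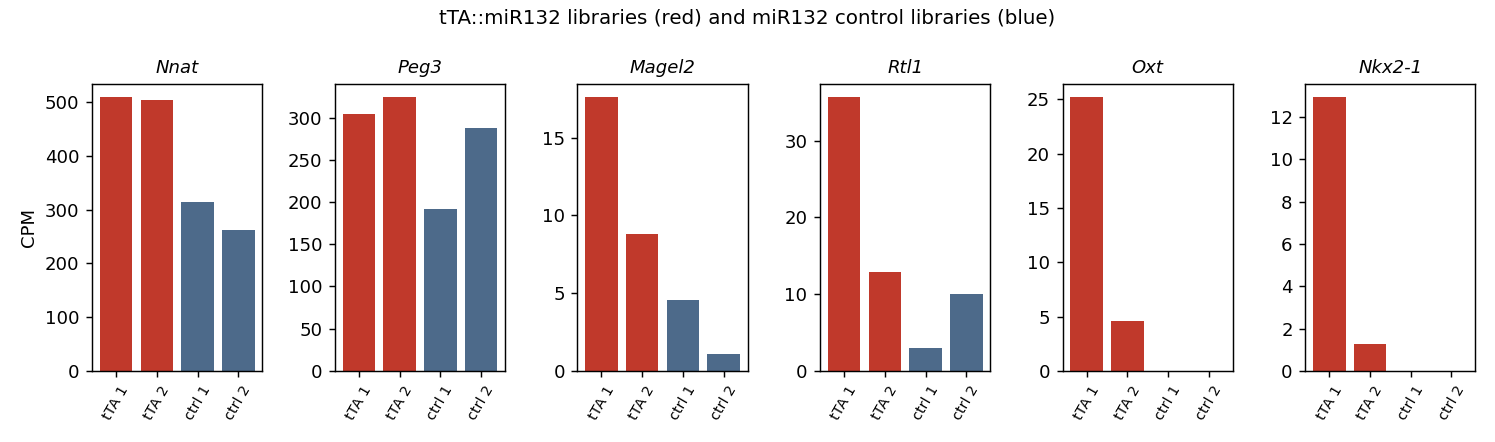
CPM of Nnat, Peg3, Magel2, Rtl1, Oxt and Nkx2-1 in the tTA::miR132 libraries (red, left) and miR132 control libraries (blue, right), 1 bar per library, each panel with its own axis from 0. Oxt and Nkx2-1 had 0 counts in both controls, and Nnat was nearly equal in both transgenic libraries while Magel2, Rtl1, Oxt and Nkx2-1 were higher in the first.

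The summed thalamus list was also highest in the miR212 library with the highest Nnat. In tTA::miR212 library 2, Nnat (460 CPM), Peg3 (639 CPM) and Meg3 (5912 CPM) were each at their highest of the 6 libraries. There 1.15% of genes deviated further upward than Nnat, 15.1% than Peg3 and 1.06% than Meg3. The other listed members were not at their highest in that library. For them the share was 73.7% for Snrpn, 81.8% for Ndn, 50.1% for Gnas and 23.7% for Zrsr1. Summed thalamus markers (4 of 6 listed) were 186, 359 and 219 CPM in tTA::miR212, against 214, 165 and 186 CPM in miR212 controls. Within that list Prkcd had 25.3, 81.6 and 31.4 CPM, against 29.4, 23.9 and 22.7 CPM in controls, and Calb2 had 33.7, 86.1 and 42.8 CPM, against 43.4, 27.7 and 18.9 CPM. Prkcd and Calb2 were picked after their values were seen. Of the rest of the list, Slc17a6 averaged 50.5 CPM in tTA::miR212 and 35.4 CPM in controls (log2 fold change 0.51, SE 0.34). Rora averaged 104 CPM in tTA::miR212 and 97.9 CPM in controls (0.08, SE 0.12). Choroid plexus markers (3 of 12 listed) ran the other way, at 1420, 219 and 1296 CPM, against 1412, 1227 and 534 CPM. Without library 2 the log2 fold change of Nnat was -0.05. The part of these tissues in the Nnat and Meg3 values was not tested.

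In the deletion the high Nnat of library 1 stood beside the neuronal marker Nrgn, which encodes neurogranin, at 3249 and 1540 CPM in cKO libraries against 1412 and 1512 CPM in cKO controls. Camk2a was at 1548 and 1729 CPM, against 1345 and 1449 CPM in controls. Summed hippocampal neuron markers were 6003 and 4247 CPM, against 3682 and 3992 CPM, and 1 marker of that list was at 0 in library 1. That list includes Nrgn and Camk2a, so the sums are not separate from the values above. In library 1 Nrgn alone gave 3249 of the 6003 CPM. No hypothalamic marker was listed for this table, and thalamus markers (5 of 6 listed) summed to 193 and 112 CPM, against 290 and 150 CPM. Their part in the Nnat value was not tested.

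The genes most like Nnat over all 14 libraries were Slc41a1, a magnesium transporter gene, Mll2, a histone methyltransferase gene, and Chpf, a chondroitin chain polymerizing factor. Likeness was the root mean square difference in log2(CPM + 1), each table centred on its own controls, over 3870 genes listed in all tables with at least 50 counts in every library. It was 0.15 for Slc41a1, 0.17 for Mll2 and 0.19 for Chpf, against a median of 0.51 over those genes. Slc41a1 had 195 and 102 CPM in cKO libraries, against 75.1 and 96.7 CPM in cKO controls, and 120 and 106 CPM in tTA::miR132, against 71.0 and 58.2 CPM in miR132 controls. Mll2 had 129 and 57.2 CPM in cKO libraries, against 50.7 and 67.4 CPM in cKO controls. Chpf had 181 and 142 CPM in cKO libraries, against 108 and 116 CPM in cKO controls, and 102 and 104 CPM in tTA::miR132, against 70.4 and 56.6 CPM in miR132 controls. Like Nnat, these genes were highest in library 1 of the cKO group within the deletion comparison. The rule picked them on these same libraries, so that likeness is no separate result. For Meg3 the rule could not be applied, as it was not in every table.

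The authors' deposited table gave q-values below 0.05 to 2 of 8 members for the deletion and 6 of 8 for tTA::miR132, against 54.6% and 53.3% of all genes, and to 0 of 7 for tTA::miR212, against 0.0866% of genes. Of the 6 for tTA::miR132, 4 (Gnas, Grb10, Impact and Ndn) had groups that overlapped in CPM. In the authors' deposited table the q-value of Nnat was 0.303 for the deletion, 4.734e-16 for tTA::miR132 and 0.987 for tTA::miR212.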

How the data were processed

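Per the labels' protocols and GEO's design field, polyadenylated hippocampal RNA was sequenced on an Illumina Genome Analyzer II and aligned to mm9 with Bowtie 0.12.7. Cufflinks 1.2 is named for abundances that were not used. For the counting tool, strand setting and annotation, the source texts at hand give no name. The deposited counts are whole reads per RefSeq gene (cKO, miR132) or Ensembl transcript (miR212), not normalized, per the file headers and values, and come from amplified reads without molecular identifiers. For miR212 the transcript with the highest mean count stood for each of 4618 symbols. The authors' p-values and q-values were deposited beside them, and only the q-values of members and their background are printed. The 14 normalized per-library columns were left aside. The labels list 18 samples; 4 libraries were not analysed here. Columns give a group and a number, so no library was tied to 1 sample.

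CPM are counts per 1000000 counts of the genes used. Each table was fitted alone in R 4.3.3 with edgeR 4.0.16 (limma 3.58.1; quasi-likelihood, TMM, filterByExpr, robust, Benjamini-Hochberg, threshold 0.05), tested on simulated data; DESeq2 1.42.0, other filters and scalings, a replicate block and leaving out libraries were alternatives. Each SE is the absolute log2 fold change divided by the square root of the quasi-likelihood test's F statistic. Python 3.11.15 did the rest. Replicate counts differed by more than sampling noise in every pair (lowest chi-square per degree of freedom 1.39). Members and lists were chosen with earlier results of these data known. Named genes were all members, the 3 smallest p among other imprinted genes per comparison, cluster neighbours, the 3 genes most like Nnat (the same rule could not be applied to Meg3), summed marker lists, and Ttr, Nrgn and Camk2a. Xist, Atp10a, Snhg11, Leng8, Fos, Npas4, Oxt, Nkx2-1, Prkcd and Calb2 are outside that rule and were chosen after their values were seen. Sequences came from RefSeq (GRCm38.p6), GENCODE vM1 and its NCBIM37 (mm9) genome. Sgce had no promoter entry. Windows on chr18, where Impact lies, were left out of the promoter count.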

Additional observations from a re-analysis of the deposited data

Results flagged for a closer look

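The Peg3 values lay on opposite sides of the controls in 2 comparisons when every transgenic or deletion library was set against the mean of its own controls. Both miR-132/212 cKO libraries lay below the mean of cKO controls, for a log2 fold change of -0.2832 (SE 0.29), and both tTA::miR132 libraries lay above the mean of miR132 controls, for a log2 fold change of 0.3422 (SE 0.25). The cKO libraries overlapped the controls: library 2 (212 CPM) lay above cKO control library 1 (208 CPM) and just under the control mean (215 CPM). Leaving out 1 library at a time gave -0.58 to -0.03 for the deletion and 0.06 to 0.70 for tTA::miR132. The difference between these comparisons was not tested, as they come from separate tables, and neither value passed edgeR's test.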

How the results depend on the processing

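Of 99 values of members under another tool, scaling, filter, block or transcript choice, 3 changed sign or went to 0. Impact of the deletion changed sign without TMM (-0.0175), and Grb10 of the deletion did so with the replicate block (-0.0299). Gnas of tTA::miR212 went from 6e-04 to a value rounded to 0.00 over all transcript rows. Among the 99 values Nnat of tTA::miR132 alone passed the threshold, with DESeq2 (0.7702, adjusted p = 0.0001222), and the cause was not tested. Genes called went from 0 to 5 (deletion) and 39 (tTA::miR132) with DESeq2, and the replicate block gave 1 for tTA::miR132 and 1 for tTA::miR212. Replicate numbers were not shown to pair libraries (same-number correlations of deviations -0.08 to 0.03), so libraries share only a number. Leaving out 1 library at a time gave 1 to 4527 called genes for the deletion (4527 without cKO library 2), 0 to 111 for tTA::miR132 (111 without control library 1) and 0 to 18 for tTA::miR212 (18 without transgenic library 1). The lone library is then assumed to vary like the other group.

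Leaving out a library turned the sign of 17 of 23 member values. In the deletion the ranges were -0.0095 to 1.08 for Nnat (the lowest without cKO library 1, the highest without library 2 and then called), -8.25 to 0.11 for Sgce (-8.25 called, without library 2), -0.63 to 0.58 for Grb10, -0.0797 to 0.0964 for Impact, -0.1475 to 0.0099 for Ndn and -0.23 to 0.41 for Zrsr1. For tTA::miR132 they were -0.0615 to 0.15 for Gnas, -0.15 to 0.72 for Grb10, -0.09 to 0.0049 for Impact, -0.30 to 0.16 for Ndn, -0.0787 to 0.46 for Sgce and -0.48 to 0.0769 for Zrsr1. For tTA::miR212 they were -0.0173 to 0.0193 for Gnas, -0.49 to 0.13 for Meg3, -0.0502 to 0.26 for Nnat, -0.12 to 0.029 for Peg3 and -0.0212 to 0.25 for Zrsr1. Nnat of tTA::miR132 stayed between 0.68 and 0.89. It came closest to the threshold without control library 1 (0.89, edgeR adjusted p = 0.06031).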
